A study of Mus musculus with 2 samples.

Results

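The 39 protein-coding Hox genes were examined in a DNase-seq data set of the embryonic mouse face, out of 21938 protein-coding genes in the same GENCODE annotation of mouse build mm10. They were taken by symbol (Hoxa, Hoxb, Hoxc or Hoxd followed by a number) without regard to any measured value. HoxA holds 11 of them on chromosome 6, HoxB 10 on chromosome 11, HoxC 9 on chromosome 15 and HoxD 9 on chromosome 2. DNase-seq finds accessible chromatin by cutting the DNA of nuclei with DNase I and sequencing the released ends. The tissue was embryonic facial prominence, the swellings that build the face, from healthy mouse embryos of strain B6NCrl at 14.5 days, males and females pooled, with no treatment and no second group. There were 2 biological replicates from separate tissue collections that carry the same donor entry, so each value is given per replicate and no test across samples was possible. Replicate 1 had 304489 deposited peaks and replicate 2 had 218221. Read depth and the peak caller were not given in the sources used here.

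Hox genes encode homeodomain transcription factors that give cells their position along the head-to-tail axis. Each cluster is ordered by paralog group, the genes that descend from the same ancestral gene and carry the same number. Genes at the 3′ end of a cluster, with the lowest numbers, act earliest and furthest towards the head, and those at the 5′ end act in the posterior trunk, the distal limb and the genital tubercle. Neural crest cells that fill the upper and lower jaw come from a Hox-free territory, while the second pharyngeal arch behind them is set by Hoxa2. Silent Hox clusters are classically covered by Polycomb repressors, and the protein CTCF binds at points inside the clusters that separate active from silent stretches.

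A peak is a region of 150 bp with a score given by the authors, a whole number up to 150 with no stated normalization. Scores rank peaks within 1 list, and below they are written as replicate 1/replicate 2, so that 92/98 means a score of 92 in replicate 1 and 98 in replicate 2. The median over a whole list was 50 in replicate 1 and 37 in replicate 2. A site is the merged stretch where peaks of both replicates overlap by at least 1 bp. A gene had a promoter site where such overlapping peaks lay within 500 bp of any of its starts in the basic GENCODE set, the starts meant below unless all transcripts are named. Absence of a peak was not taken as closed chromatin.

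Sites inside the clusters were numbered from the lowest coordinate, as in HoxA-8. The 7 sequences shown here are the ones the results turn on, as 150 bp of the plus strand of mm10 (GRCm38), 5′ to 3′. The first 3 come from a position that recurred between the coding regions of paralog 9 and the next lower paralog of each cluster. They were HoxB-7 (chr11:96278896-96279045, between Hoxb8 and Hoxb9), HoxC-8 (chr15:102987526-102987675, between Hoxc8 and Hoxc9) and HoxD-4 (chr2:74702326-74702475, between Hoxd8 and Hoxd9). HoxB-7 and HoxD-4 were intergenic by their midpoint, and HoxC-8 lay in an intron of a longer Hoxc5 transcript that is outside the basic set. The fourth, HoxA-8 (chr6:52221706-52221855, between Hoxa7 and Hoxa9), is not printed, since it lies in an untranslated exon at the start of a Hoxa7 transcript outside the basic set. Capitals mark, on either strand, the CTCF string (CC, any 3 bases, AG, any 2 bases, GGC) in HoxB-7, and in the other two the longest word that HoxC-8 and HoxD-4 have in common.
HoxB-7: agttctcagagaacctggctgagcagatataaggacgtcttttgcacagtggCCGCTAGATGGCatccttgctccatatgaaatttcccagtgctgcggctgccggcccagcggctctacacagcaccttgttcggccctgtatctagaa
HoxC-8: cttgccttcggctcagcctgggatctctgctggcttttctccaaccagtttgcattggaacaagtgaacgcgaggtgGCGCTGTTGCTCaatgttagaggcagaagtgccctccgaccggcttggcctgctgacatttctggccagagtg
HoxD-4: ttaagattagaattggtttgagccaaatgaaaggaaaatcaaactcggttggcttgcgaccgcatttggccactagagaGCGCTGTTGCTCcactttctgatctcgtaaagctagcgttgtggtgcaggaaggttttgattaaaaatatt

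HoxD-6 (chr2:74715886-74716035) had the highest mean rank of any site inside a cluster and covers a start of the antisense RNA gene Hoxd3os1 between Hoxd4 and Hoxd8. HoxD-1 (chr2:74673076-74673225, intergenic between Hoxd12 and Hoxd13) carries the same 12 letters as HoxA-8. Capitals in both mark the CTCF string.
HoxD-6: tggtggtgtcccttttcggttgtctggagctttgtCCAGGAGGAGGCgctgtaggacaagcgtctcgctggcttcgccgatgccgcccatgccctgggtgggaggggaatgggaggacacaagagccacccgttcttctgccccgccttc
HoxD-1: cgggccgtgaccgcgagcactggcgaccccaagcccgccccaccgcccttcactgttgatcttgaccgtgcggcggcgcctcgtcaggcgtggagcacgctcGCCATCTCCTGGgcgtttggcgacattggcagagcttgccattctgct

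The last pair comes from the flanks, and capitals mark CCAAT on either strand. The HoxA flank site (chr6:51178606-51178755) is intergenic, 977 kb beyond the 3′ end of its cluster. The HoxC flank site (chr15:103305296-103305445) is intronic, 269 kb beyond the Hoxc4 end, and its nearest protein-coding gene by start is Gpr84, which encodes a fatty acid receptor of immune cells.
HoxA flank site: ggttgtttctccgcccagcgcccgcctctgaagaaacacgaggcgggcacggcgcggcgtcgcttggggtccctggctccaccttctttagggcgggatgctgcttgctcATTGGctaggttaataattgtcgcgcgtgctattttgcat
HoxC flank site: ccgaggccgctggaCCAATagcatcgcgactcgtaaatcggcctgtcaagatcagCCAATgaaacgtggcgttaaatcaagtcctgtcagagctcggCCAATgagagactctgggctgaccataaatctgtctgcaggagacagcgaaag

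The label of the tissue was checked on marker genes. All 12 genes of a facial mesenchyme list (such as Alx1, Msx1 and Prrx1) and all 6 of an epithelium list (such as Trp63 and Epcam) had a promoter site in both replicates, where the background over all protein-coding genes was 67.4%. Of 9 genes of a second arch and neck list, 2 did (Foxn1, 58/44, and Pax1, 69/49), but 5 of the 9 are Hox genes themselves. Of its other non-Hox genes, Tbx1 had a peak of 55 in replicate 1 only and Gcm2 had none. The non-Hox genes of this list are not markers of mesenchyme alone, so it does not check for second arch or neck mesenchyme. In lists of neighbouring regions, 9 of 12 hindbrain and spinal cord genes and 8 of 10 limb and trunk genes had a promoter site, shares close to the background. In the limb and trunk list, Tbx5, the forelimb T-box gene, had no promoter peak. Tbx6, of the early trunk mesoderm, had peaks of 38 and 36 that did not overlap. The 8 called genes of that list ran from Tbx18 (126/115) to Tbx4 (60/42). In a bulk tissue, fewer cells with an open site and a weaker opening in each cell cannot be told apart.

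Few Hox promoters were called in both replicates. Of the 39 genes, 14 had a promoter site, against a background of 67.4% over all protein-coding genes. Replicate 1 alone had a peak at 20 of the 39 (51.3%, background 70.9%) and replicate 2 at 16 (41.0%, background 68.7%). At 18 genes neither replicate had a promoter peak (46.2%, background 28.1%). Hotspots, the broader regions called from the same reads, gave the same number of 14 (background 68.0%).

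The called Hox promoters were spread over the whole axis and over all 4 clusters. HoxA had 5 of 11, HoxB 3 of 10, HoxC 3 of 9 and HoxD 3 of 9, beside the background of 67.4% over all protein-coding genes. Paralogs 1 to 4, the anterior group that includes the hindbrain and second arch genes, had 4 of 12, the central paralogs 5 to 8 had 4 of 11, and the posterior paralogs 9 to 13 had 6 of 16. A single paralog number holds only 2 to 4 genes, so 1 gene moves its share widely, and the counts by number are given as description only. All 3 genes of group 10 (Hoxa10, Hoxc10 and Hoxd10, which pattern the lumbar spine) and 3 of 4 of group 13 (Hoxa13, Hoxb13 and Hoxc13, of the most posterior body) were called. Group 5 had 2 of 3 (66.7%), and the 3 of 4 of group 13 are 75%, both near the background of 67.4%. In groups 3, 6 and 12 none of the 3, 3 and 2 genes had a peak in either replicate, as was so for 28.1% of all protein-coding genes.

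The anterior genes differed by paralog. Hoxd1 scored 69/67, while Hoxb1, the marker of the fourth rhombomere, had no promoter peak. Its nearest site, HoxB-15 in the Hoxb1 intron at 62/39, lay 744 bp from the start and so just outside the 500 bp window, though 238 bp from the start of a Hoxb1 transcript outside the basic set. Inside that limit, the Hoxb4 site (56/37) lay 309 bp from its start. Hoxa2, the selector gene of the second arch, had its nearest site 5846 bp away. Hoxb2 had a peak of 46 in replicate 1 and of 28 in replicate 2 that did not overlap. Hoxa3, Hoxb3 and Hoxd3, genes of the third arch and its organs, had no promoter peak in either replicate. In group 4, Hoxa4 scored 85/87 and Hoxb4 56/37, Hoxc4 had a peak of 40 in replicate 1 only, and Hoxd4 had a highest peak of 21 in replicate 2 only.

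Among the central genes the called promoters were Hoxb5 (64/65), Hoxc5 (52/46), Hoxa7 (56/59) and Hoxd8 (72/54). The Hoxa7 value is for starts of the basic set, while HoxA-8, at 92/98, covers the start of a Hoxa7 transcript outside that set. Hoxa5, which is needed for the airway and the neck vertebrae, had a peak of 59 in replicate 1 only. Hoxa6, Hoxb6 and Hoxc6 had none, nor did Hoxb7, Hoxb8 and Hoxc8. The 6 uncalled genes of this group with no peak in either list had their nearest site at 1831 bp (Hoxb8) to 4103 bp (Hoxc6).

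Of the posterior genes, Hoxa10 (98/82), Hoxc13 (95/79, at a site 138 bp before the gene and so just outside the cluster span) and Hoxd10 (88/72) had the highest promoter scores in replicate 1. Hoxc10 followed at 61/62, Hoxb13 at 61/40 and Hoxa13 at 47/64. Hoxa13 scored higher in replicate 2 than in replicate 1, although the list of replicate 2 had the lower median. Group 9 had no called promoter in any of the 4 clusters, with peaks of 55 at Hoxa9 and 60 at Hoxd9 in replicate 1 only. Hoxd11, a forearm and kidney gene, had 57 in replicate 1 only, and Hoxd13, a digit gene, had no promoter peak. In all, 5 genes had a peak in replicate 1 only (background 3.17%) and 1 in replicate 2 only (background 0.921%).

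**Figure D1:**
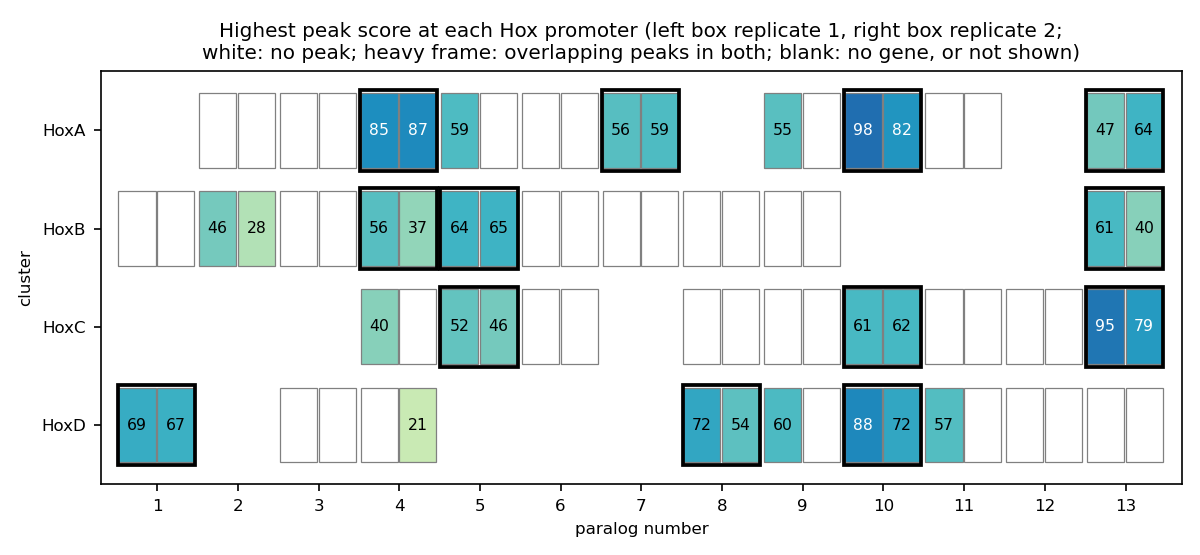
Highest peak score at each Hox promoter, by paralog number (horizontal) and cluster (vertical), with replicate 1 in the left and replicate 2 in the right box of each gene. White boxes have no peak and heavy frames mark overlapping peaks in both replicates. Group 10 is framed in every cluster that has it, and groups 3, 6 and 12 are white throughout.

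Hox promoter sites that were called ranked below those of most genes. Their median score was 66.5 in replicate 1, with quartiles of 57.3 and 87.3, and 64.5 in replicate 2, with quartiles of 55.3 and 77.3. Over all genes with a promoter site the medians were 122 (quartiles 95 and 136) and 111 (quartiles 80 and 125). In replicate 1, Hoxa10 at 98 was above the lower quartile of all genes and Hoxc13 at 95 was on it. In replicate 2, Hoxa4 (87) and Hoxa10 (82) were above it. The strongest hotspots share a ceiling value of 100 for the −log10 of the q-value, and 8 of 14 Hox promoters reached it in replicate 1 (57.1%, against 91.9% of all called promoters). In replicate 2, 7 of 14 did (50% against 88.6%).

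The gap to other genes was wider among CpG-rich promoters. A promoter was called CpG-rich here where the window around any of its starts had at least 55% G and C and at least 0.65 of the CpG number that its base content gives. By that rule 21 of the 39 Hox promoters were CpG-rich, and 9 of them had a site (42.9%, background 97.8% of CpG-rich promoters). Of the other 18, 5 had a site (27.8%, background 47.2%). Hoxa11, Hoxc11, Hoxc12, Hoxd3 and Hoxd13 were among the CpG-rich promoters with no peak in either list.

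The partners and inputs of the Hox proteins were mostly called, beside a background of 67.4% over all protein-coding genes. All 9 cofactor genes of the Pbx, Meis and Pknox families, which bind DNA with Hox proteins, had a promoter site, such as Pbx3 (78/77), Meis1 (132/118) and Pknox1 (143/136). All 21 genes of a list of Polycomb and Trithorax proteins, which hold Hox genes silent or active, CTCF and cohesin had one too. Among the retinoic acid and hindbrain inputs 13 of 14 did, the exception being Cyp26c1, which degrades retinoic acid. CpG-rich promoters, a class with a background of 97.8%, made up 20 of these 21 genes and 11 of these 14. Of 13 ParaHox and cluster-linked homeobox genes, 7 had a promoter site (53.8%), a share below the background like that of the Hox genes. Of the 7 that were CpG-rich, 4 had one (57.1%). Cdx1, Cdx2, Cdx4, Evx1, Evx2 and Gsx2 had no promoter peak in either replicate. Evx1 and Evx2 sit next to Hoxa13 and Hoxd13.

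Inside the cluster spans, from the outermost bases of the Hox genes, there were 46 sites: 11 in HoxA, 15 in HoxB, 10 in HoxC and 10 in HoxD. That made 9.35 sites per 100 kb over the 4 clusters, against 6.51 over the genome. Of the 46 sites, 21 lay within 500 bp of a start of any gene and 25 did not. With all GENCODE transcripts it was 23 each. By midpoint and basic transcripts, 19 were intergenic, 14 intronic, 7 in exons of non-coding RNA, 5 in untranslated parts of exons and 1 in a coding exon. Their median score was 63.5/63.5, against 63/41 over all 177440 sites of the genome. The 21 at starts had 64/64, against 91/74 for all promoter sites. The other 25 had 63/57, against 60/38 at sites over 1000 bp from every start. HoxA had the highest median at 88/82, followed by HoxD at 70.5/69.5, HoxB at 56/44 and HoxC at 51/45. HoxA and HoxC overlapped in range, since HoxA sites ran from 47 to 98 and HoxC sites from 34 to 91 in replicate 1.

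Sites were spread along the clusters rather than gathered at 1 end. The intervals counted here run from coding region to coding region, so they take in promoters, untranslated exons and introns. Some, such as Hoxa10 to Hoxa11 and Hoxc5 to Hoxc6, held only a site at a start. Of the 35 intervals between neighbouring Hox coding regions, 27 held a site: 7 of 10 in HoxA, 8 of 9 in HoxB, 6 of 8 in HoxC and 6 of 8 in HoxD. The empty ones were Hoxa2 to Hoxa3, Hoxa5 to Hoxa6, Hoxa9 to Hoxa10, Hoxb2 to Hoxb3, Hoxc4 to Hoxc5, Hoxc11 to Hoxc12, Hoxd9 to Hoxd10 and Hoxd11 to Hoxd12. The longest stretch without a site was 36.3 kb in HoxB, all of it inside the 75.3 kb between Hoxb9 and Hoxb13. In the other clusters it was 27.5 kb in HoxC (across Hoxc11 and Hoxc12), 21.9 kb in HoxD (across Hoxd4 and Mir10b) and 19.3 kb in HoxA (from the Gm15050 start to the Hoxa4 promoter).

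A position recurred in all 4 clusters and was singled out after its values were seen. Between paralog 9 and the next lower paralog each cluster held a site 2130 to 2985 bp from the nearest Hox start of the basic set. HoxA-8 scored 92/98, HoxB-7 90/81, HoxC-8 91/92 and HoxD-4 79/80. All 4 ranked high, at percentiles of 83.1 to 89.9 among the peaks of replicate 1 and of 89.8 to 94.3 among those of replicate 2. HoxA-8 covers a start of a Hoxa7 transcript outside the basic set, so with all transcripts this step had a site away from starts in 3 clusters. The steps 6 to 7, 10 to 11 and 12 to 13 then had one in 3 clusters each as well, where an interval across a missing paralog counted for each step it spans. Hoxa9, Hoxb9, Hoxc9 and Hoxd9, on the 5′ side of these sites, had no called promoter, and neither did groups 2, 3, 6, 11 and 12.

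Other strong sites lay elsewhere in the clusters. HoxD-6 at the start of Hoxd3os1 scored 100/98, the highest pair in any cluster. HoxB-11 lay between Hoxb4 and Hoxb5 at 97/89, 6442 bp from the Hoxb4 start. HoxA-6 lay in the interval between Hoxa6 and Hoxa7 at 88/98, and HoxA-5 between Hoxa4 and Hoxa5 at 92/73. HoxA-5 and HoxB-11 thus lay in the same step. With all transcripts, the steps 4 to 5 and 6 to 7 had a site away from starts in 2 and 3 clusters. The weakest sites were HoxB-3 (29/44) and HoxB-6 (33/23) in the long Hoxb9 to Hoxb13 interval, and HoxC-3 (34/27) between Hoxc10 and Hoxc11.

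**Figure D2:**
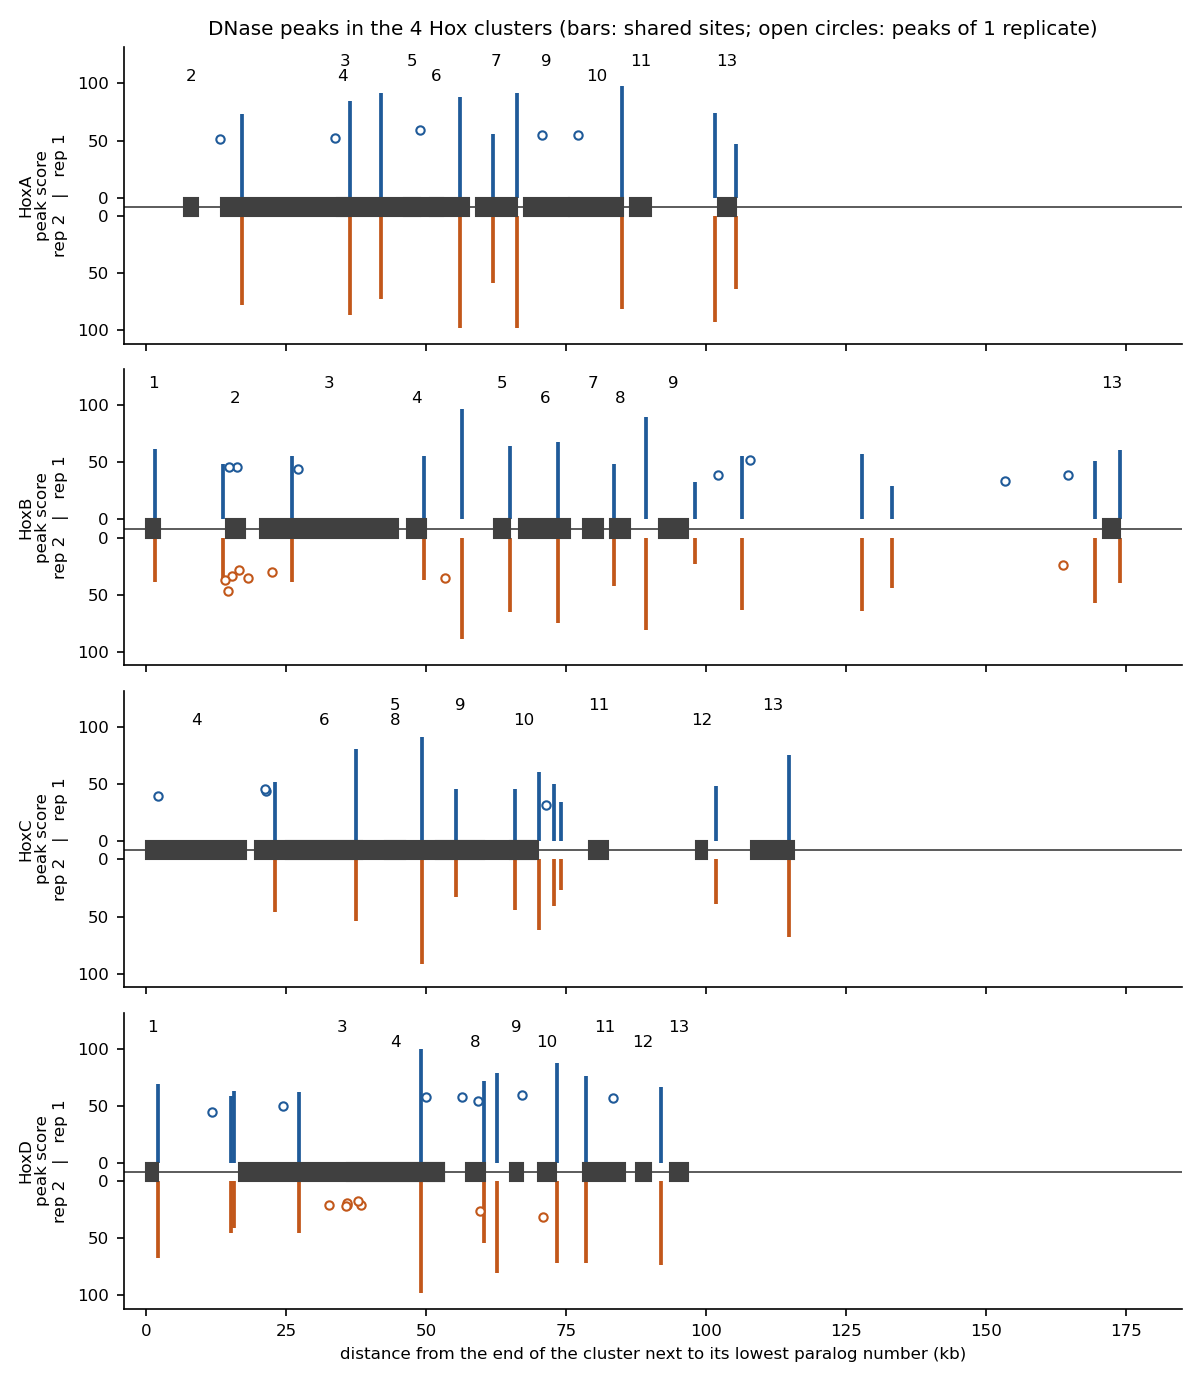
Peaks along the 4 clusters (44 of the 46 sites are drawn), drawn from the end with the lowest paralog number (horizontal, kb), with gene bodies, some of which overlap, as dark bars and their paralog numbers above each middle. Vertical bars give the scores of sites in replicate 1 (up) and replicate 2 (down), and open circles are peaks found in 1 replicate only. Each cluster has a bar of 79 to 98 between paralog 9 and the next lower paralog, and HoxB shows the long sparse stretch before Hoxb13.

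Other genes that start inside the clusters were counted by class, each with the share over all genes of that class. Of 7 microRNA genes, among them Mir10a, Mir10b and Mir615, none had a site within 500 bp of its start (background 15.4%). Of 16 small RNA genes of the type misc_RNA, 1 did (background 11.9%), and of the 3 other protein-coding genes none did (background 67.4%). Of 20 long non-coding or other genes, 8 did (background 18.8%), among them Gm15050 (73/78), 9530018H14Rik (74/93), Gm53 (56/63), Gm11536 (56/39), Hoxb3os (49/38), Hoxd3os1 (100/98) and Haglr (59/45). Hotair, which lies between Hoxc11 and Hoxc12, had none. Starts that face each other cannot be told apart by a site of this width.

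The clusters kept or lost peaks between replicates unevenly. In replicate 1, 23 of 70 cluster peaks had no partner in replicate 2 (32.9%, against 40.8% over the genome). In replicate 2, 16 of 62 had no partner in replicate 1 (25.8% against 16.4%). HoxA and HoxC had no peak of replicate 2 alone, while HoxB had 8 of 23 and HoxD 8 of 18. Most of these stood in 2 runs. From Hoxb3 across Hoxb2 to just beyond its 3′ end, 6 such peaks with scores of 28 to 47 lay within 8.53 kb. The same stretch held 2 peaks of replicate 1 alone, each at 46. Around Hoxd4, 6 with scores of 17 to 22 lay within 5.89 kb, and some of them overlap each other, so that they fill 4 separate positions (6 for the 8 of HoxD). There, a hotspot of replicate 2 at the Hoxd4 promoter reached the ceiling of 100. Among the 12 hindbrain and spinal cord genes, Lbx1 (38) and Phox2a (32) also had a promoter peak in replicate 2 only (background 0.921%). No gene of that list had one in replicate 1 only (background 3.17%). Of its 9 genes with a promoter site, 3 ranked higher in replicate 2 (33.3%, against 35.1% of all called promoters). Whether hindbrain or spinal cord tissue had a part in the peaks of replicate 2 alone was not tested.

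Cluster sites also ranked higher in replicate 2 than in replicate 1. This held for 33 of 46 (71.7%), against 28.2% of all sites. By cluster it was 8 of 11 in HoxA, 11 of 15 in HoxB, 8 of 10 in HoxC and 6 of 10 in HoxD. The median rank percentile of the 46 was 69.5 in replicate 1 and 81.7 in replicate 2, while over all sites it was 68.9 and 58.1. The score itself was higher in replicate 2 at 17 of the 46 (37.0%, against 5.71% of all sites). Sites in the 1 Mb flanks did not share this, with 28.4% of 984 ranked higher in replicate 2.

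The direction was the same at starts and away from them. It held for 14 of 21 sites at promoters and 19 of 25 elsewhere, where the genome had 36.0% at promoters and 26.2% at sites over 1000 bp from every start. Sites with the CTCF string went the same way over the genome (63.0% ranked higher in replicate 2, against 24.4% without it). Of the 39 cluster sites without an exact match to that string, 27 ranked higher in replicate 2 (69.2%). HoxC-8 and HoxD-4, which hold near matches, are among these 27. Whether CTCF had a part in the ranks was not tested. At gene promoters, 8 of 14 Hox promoter sites ranked higher in replicate 2, against 35.1% of all called promoters. For the hindbrain and spinal cord list it was 3 of 9, for limb and trunk 1 of 8 and for facial mesenchyme 2 of 12. The ParaHox and cluster-linked homeobox list had 4 of 7, the same share as the Hox promoters (57.1%). Replicate and sequencing run cannot be told apart here, since instruments are listed for replicate 1 only.

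**Figure D3:**
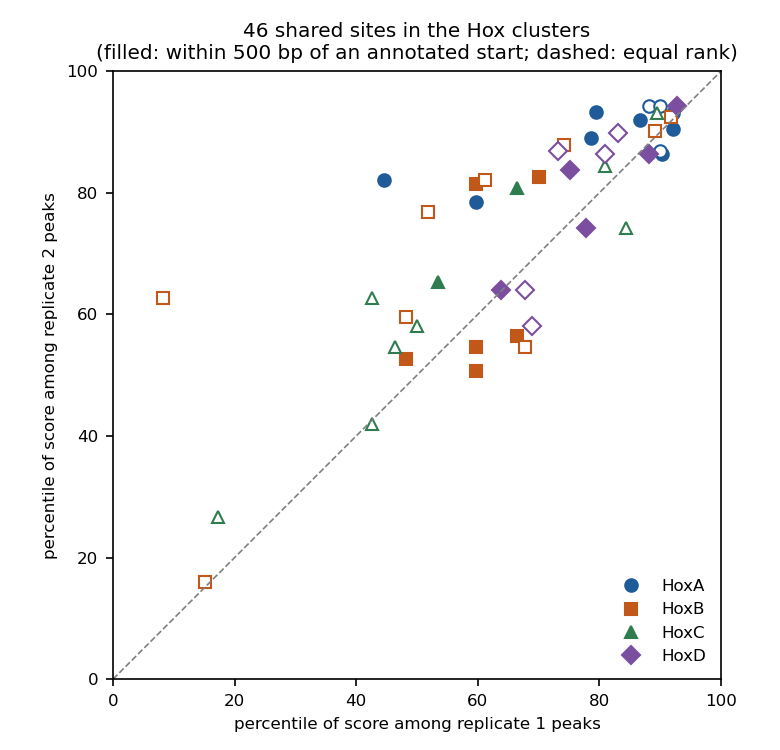
Rank percentile of each of the 46 cluster sites among the peaks of replicate 1 (horizontal) and of replicate 2 (vertical), by cluster, with filled symbols for sites within 500 bp of an annotated start. The dashed line marks equal rank, and 33 sites lie above it.

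The sequences of cluster sites differed from those of other sites in composition and in a few strings, each searched on both strands of the 150 bp centre. Their median share of G and C was 61.7%, against 50.7% over all sites. Part of this is the mix of sites, since 21 of the 46 lay at starts but only 28291 of all 177440. At starts it was 64.0%, against 62.7% for all promoter sites. Elsewhere it was 53.3%, against 48.7% at sites over 1000 bp from every start. The NF-Y string CCAAT was in 20 of 46 (43.5%, against 19.6% of all sites), with 12 of 21 at starts (57.1% against 22.0% of all promoter sites) and 8 of 25 elsewhere (32.0% against 19.1%). The AP-2 string GCCNNNGGC was in 13 (28.3% against 7.21%), with 9 of 21 at starts (42.9% against 14.6%) and 4 of 25 elsewhere (16% against 5.80%). The SP/KLF string GGGCGG was in 11 (23.9% against 12.4%), but at starts its share was below that of all promoter sites (6 of 21, 28.6% against 42.2%) and elsewhere above (5 of 25, 20% against 6.78%). These shares were not matched for base composition. The MEIS string TGACAG was in 2 (4.35% against 12.5%), both at starts (9.52% against 8.96%), and in none of 25 elsewhere (against 13.2%). The E-box string CAGCTG was in 4 (8.70% against 18.0%), with 2 of 21 at starts (9.52% against 11.5%) and 2 of 25 elsewhere (8% against 19.3%). CATCTG was in 3 (6.52% against 16.6%), with none at starts (against 7.63%) and 3 of 25 elsewhere (12% against 18.3%). The PBX-HOX string TGATTNAT was in none of the 46, against 1.76% of all sites, too rare a string for 46 sites to show a difference. A match says that these letters are in the window and nothing about the factor.

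The CTCF string was in 7 of 46 cluster sites (15.2%, background 9.81%): 2 in HoxA, 3 in HoxB, none of 10 in HoxC and 2 in HoxD. The 7 had median scores of 90/81, against 62/57 for the other cluster sites. Over the genome the string came with medians of 66/58, against 62/39 without it. They were HoxA-8, HoxA-9 near the Hoxa10 start (98/82), HoxB-5 at a Gm53 start (56/63), HoxB-7, HoxB-10 near the Hoxb5 start (64/65), HoxD-1 (67/73) and HoxD-6. Only exact matches were counted. HoxC-8 and HoxD-4 each hold a near match that overlaps the start of the word they have in common.

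Common words were sought between the 990 pairs of 45 cluster sites, on the same and on opposite strands. The longest word in common had a median length of 8 bases, and 11 pairs had one of 12 or more. The longest, at 13 bases, was common to HoxB-2 and HoxB-11. HoxC-8 and HoxD-4, the sites before paralog 9, had GCGCTGTTGCTC (12 bases) in common. HoxA-8 and HoxD-1 had the 12 letters that are their CTCF string match. No sequence outside the clusters was compared, so how often other sites of like composition have such words was not tested.

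The flanks of the clusters differed in their number of sites. Such flanks hold the long-range enhancers of Hox genes in limb, gut and face, beside unrelated genes, and distance alone leaves the target gene of a site unknown. Over 2613 windows of 1 Mb across the genome the median was 65 sites (quartiles 27 and 99). The 5′ flank of HoxC, beyond Hoxc13, held 188 sites, a percentile of 99.5 among those windows, together with 33 protein-coding genes. HoxB had 147 on its 5′ side (percentile 95.2) and 141 on its 3′ side (93.5), each with 21 genes. HoxA had 122 on its 3′ side (86.5) with 5 genes and 93 on its 5′ side (70.1) with 4. HoxD had 109 on its 3′ side (80.4) with 3 genes and 85 on its 5′ side (63.7) with 5.

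The 3′ flank of HoxC was the most uneven. It held 99 sites, of which 92 lay within 500 kb of Hoxc4 and 7 beyond. Its densest 100 kb, at 200 to 300 kb, held 27, while 600 to 700 kb and 900 to 1000 kb held none. In that flank 143 kb has no read sequence in the assembly, more than in any window used above, so it was given no percentile, and the last site lay 838 kb out. Over the other 7 flanks, every 100 kb step held at least 4 sites. At the outer limit of 1 Mb, the HoxD 3′ flank had a site of 81/42 at 998 kb just inside and of 84/44 at 1003 kb just outside.

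**Figure D4:**
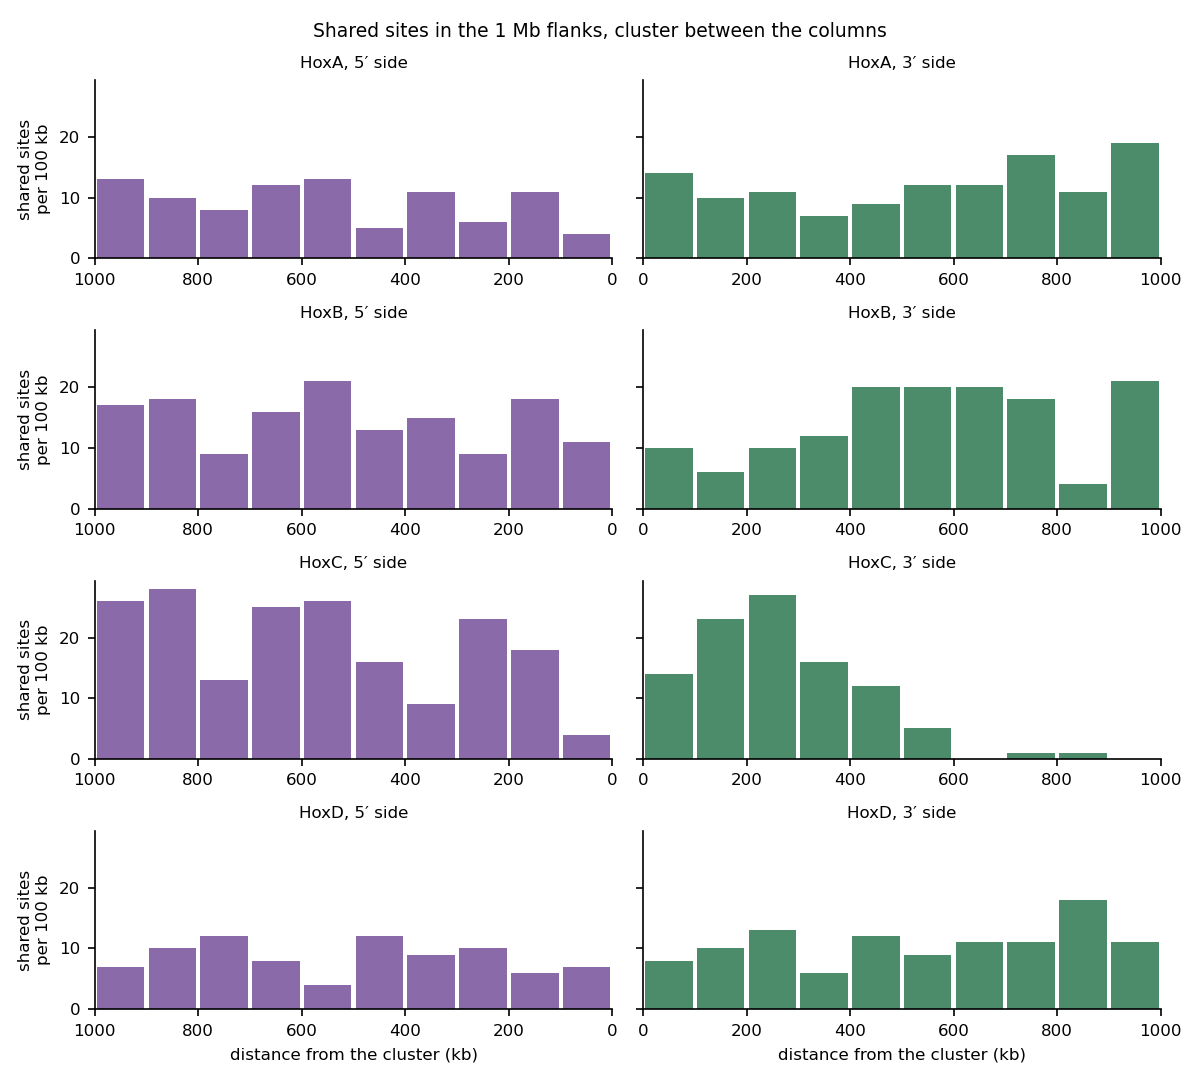
Number of sites in each 100 kb step of the 1 Mb on either side of the 4 clusters, with the cluster between the left column (5′ side) and the right column (3′ side). The horizontal axis is the distance from the cluster in kb. The HoxC flank next to Hoxc4 falls from 27 sites in a step to 0, and the opposite HoxC flank holds up to 28.

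The strongest site away from starts in any flank was the HoxA site shown above, at 143/134. It ranked 29 among the 140271 sites of the genome that lie over 1000 bp from every start. The next 2 sites of that flank, at 142/117 and 142/114, lay beside it, 983 and 984 kb from the cluster. The nearest protein-coding start to this trio was that of Nfe2l3, a bZIP transcription factor, 254 kb from the strongest and on the side of the cluster. In the HoxC 3′ flank a site of 138/134 ranked 66, 1.39 kb from the start of the DNA glycosylase gene Smug1, and the site near Gpr84 scored 146/122 and ranked 121. The HoxC site shown above carries CCAAT 3 times. In the HoxD 3′ flank the strongest was an intronic site of 132/127 at 1.12 kb from Nfe2l2, which encodes the oxidative stress factor NRF2. The strongest in the HoxC 5′ flank, 136/112, lay nearest to the epithelial keratin gene Krt8, at 20.1 kb. In the remaining flanks the strongest sites away from starts scored 127/100 (HoxA 5′), 116/110 (HoxB 3′), 116/102 (HoxB 5′) and 108/103 (HoxD 5′).

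Of the 16 genes that border the clusters, 11 were called (68.8%), close to the background of 67.4%. On the 3′ side the 2 nearest were Skap2 (133/120) and Snx10 (77/82) at HoxA, Skap1 (41 in replicate 1 only) and Snx11 (136/133) at HoxB, Smug1 (48 in replicate 1 only) and Cbx5 (144/133) at HoxC, and Mtx2 (113/106) and Hnrnpa3 (139/132) at HoxD. On the 5′ side they were Evx1 (no peak) and Hibadh (135/126) at HoxA, Ttll6 (70/73) and Calcoco2 (no peak) at HoxB, Calcoco1 (142/128) and Atp5g2 (130/121) at HoxC, and Evx2 (no peak) and Lnpk (137/125) at HoxD. Some neighbours are relatives that sit at the same side of several clusters, and they were picked out after their values were seen. The Skap genes, which encode adaptor proteins of immune cells, differed, with Skap2 called in both replicates and Skap1 in 1. The Nfe2l relatives Nfe2l3 (93/78), Nfe2l1 (147/135), Nfe2 (78/64) and Nfe2l2 (130/105) were called at all 4 clusters. So were the Cbx relatives of heterochromatin protein 1, Cbx3 (143/139), Cbx1 (141/130) and Cbx5, at the 3 clusters that have them within 1 Mb.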

How the data were processed

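The authors deposited 1 peak list and 1 hotspot list per replicate in mm10 coordinates, each derived from that replicate alone, per the deposited descriptions. Aligner, caller, settings and read depth were not given in the sources used here, so the precision of a call is unknown. The deposited peak value is a score from 1 to 150 with no stated normalization and was used only to rank or describe peaks. The deposited hotspot value is the −log10 of a q-value, from 1.30 to 100.

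Regions off chromosomes 1 to 19, X and Y and repeated coordinates were left out. This kept 304233 peaks and 277933 hotspots in replicate 1, and 217980 and 198482 in replicate 2. Peaks of both replicates that overlapped by 1 bp or more were merged into sites. Starts were those of the basic GENCODE M21 transcripts. Cluster spans ran from the outermost bases of the Hox genes, and flanks took 1 Mb on either side. Percentiles for flanks came from 1 Mb windows with at most 10% unread sequence. Sequences and 13 strings were read from GRCm38, the same coordinates as mm10. The members, lists and tests were chosen with earlier results of these data known. The named-gene rule took every Hox gene, the 2 nearest genes and those at the 3 highest-ranking sites of each flank, non-coding genes with a site at their start, and up to 4 members of each list without (or with) a promoter site. Other names were chosen after values were seen. HoxD-4 was added after values were seen to the sequences chosen by rank or by the CTCF string. Some items are not reported here by name or sequence, though counts include them. Python 3.11.15, numpy 2.4.6, pandas 2.3.3, pysam 0.24.0 and matplotlib 3.10.9 were used. The overlap and promoter counts were tested on simulated data. The alternatives were stronger peaks or hotspots, a 50% overlap, hotspots for peaks, lists of equal length, each replicate alone, other promoter windows and starts, and 500 kb flanks. Principal transcripts and all transcripts were added after seeing the data. With 1 group of 2 replicates no p-value was computed.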

Additional observations from a re-analysis of the deposited data

How the results depend on the processing

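The number of Hox promoters with a site stayed at 13 to 15 over 9 alternatives (stronger peaks, 50% overlap, hotspots, lists of equal length, other windows and other starts), whose backgrounds ran from 63.2 to 69.4%. With each replicate alone it was 16 to 20. Stronger peaks only left 6 sites in HoxC, and 75, 66, 48 and 38 sites per Mb in the HoxA 3′, HoxD 3′, HoxA 5′ and HoxD 5′ flanks. This alternative removes peaks by construction. Stronger hotspots covered 1.95% of HoxB, 2.02% of HoxC and 2.07% of HoxD. Within 500 kb the HoxC 3′ flank held 184 sites per Mb, since its sites lie near the cluster. Each replicate alone, which needs no partner peak, gave 11 to 16 sites in HoxA, 22 to 23 in HoxB, 10 to 14 in HoxC and 16 to 17 in HoxD. The flanks then held 153 to 190 sites per Mb (HoxA 3′), 164 to 230 (HoxB 3′), 112 to 138 (HoxC 3′), 130 to 168 (HoxD 3′), 110 to 159 (HoxA 5′), 174 to 226 (HoxB 5′), 213 to 263 (HoxC 5′) and 98 to 134 (HoxD 5′). Hotspot cover ranged over 2.66 to 3.95% of HoxA, 2.92 to 3.20% of HoxB, 2.27 to 3.04% of HoxC and 3.01 to 3.57% of HoxD. The 2 ends of each range are the 2 replicates, with replicate 1 the higher except in HoxB. Over the genome the cover was 3.18% in replicate 1 and 2.19% in replicate 2. No paired analysis was possible because the study has a single group. Depth is unknown, so a peak that 1 list lacks may lie below its limit.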
